A study of Caenorhabditis elegans with 36 samples.

Results

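The small RNAs that remain in *C. elegans* adults without MUT-2 were compared in the presence and absence of HRDE-2. The comparison used input libraries, made from lysate before any immunoprecipitation (IP), and set 3 inputs of mut-2; hrde-2 double mutants against 3 mut-2 inputs out of the 36 libraries of the series. The double mutants carried mut-2(ne298) on chromosome I and hrde-2/enri-3(qe20) on chromosome V, the mut-2 animals carried mut-2(ne298) alone, and all of them expressed HRDE-1 from its own locus with a GFP::3xFLAG tag (allele tor125). The same loss of HRDE-2 with MUT-2 present was read from 3 hrde-2 inputs (qe20) and 3 wild-type inputs, which carried the tagged HRDE-1 and no other listed mutation. Each genotype was a single strain, and each replicate was a collection of about 100000 whole adults grown for 68 h after hatching at 20 °C, from which RNAs of 18 to 30 nt were sequenced. The gene classes used below were read from other libraries of the series. These were simr-1 and simr-1 mut-2 inputs, the latter with the mut-2 allele cmp306, and the HRDE-1 IPs and inputs of wild-type and hrde-2.

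Most germline small interfering RNAs of *C. elegans* are 22G-RNAs, short antisense RNAs that RNA-dependent RNA polymerases copy from a target mRNA. MUT-2, also called RDE-3, is a nucleotidyltransferase of the Mutator foci, the perinuclear granules in which the 22G-RNAs of silenced genes and transposons are amplified, while the 22G-RNAs bound by CSR-1 against expressed germline genes are made without it. HRDE-1 is a nuclear Argonaute that carries inherited silencing signals into germline nuclei, and HRDE-2 is a partner of HRDE-1 in SIMR foci, granules that lie next to the Mutator foci. The question here was what losing HRDE-2 does to the total pool of small RNAs once Mutator amplification is already gone.

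Counts on genes came to 6909999, 6346993 and 5461721 in the double mutant inputs, against 6100072, 6094760 and 8138218 in the mut-2 inputs. Levels are given as RPM, the counts of a gene scaled by the total counts on genes of its library to 1000000, so that 10 RPM stood for 54.6 to 81.4 counts. Ribosomal RNA took 14.1%, 8.71% and 13.2% of the counts in the double mutant inputs and 28.9%, 23.6% and 24.03% in the mut-2 inputs, so the groups did not overlap (p = 0.1 in a two-sided exact test by permutation, which 3 against 3 libraries cannot go below; adjusted p = 0.144 over 13 shares). The median log2 ratio of RPM over the 11384 genes tested was 0.27, whereas the TMM scaling of the test, which centres on the bulk of genes, put it at 0.00. Fold changes below are on the TMM scale and stand relative to that bulk, while RPM values are not corrected for it. Each strain was grown and made into libraries in biological triplicate, per the study's methods, and p-values measure the spread between these samples. The small RNAs on hrde-2 itself stood at 65.0, 66.3 and 72.0 RPM in the double mutant and 70.3, 75.6 and 68.0 RPM in mut-2 (log2 fold change -0.36 ± 0.07 SE, adjusted p = 0.0086), and those on mut-2 at 52.4, 52.3 and 53.7 against 44.4, 45.5 and 43.3 RPM (-0.04 ± 0.07, adjusted p = 0.78, with a positive sign when libraries are scaled by size alone). Small RNAs that target a gene need not follow a mutation in it, so these values do not check the genotypes. On hrde-1 there were 651, 685 and 538 RPM in the double mutant and 398, 438 and 511 RPM in mut-2, a log2 fold change of 0.19 ± 0.14 that did not pass the test (adjusted p = 0.43).

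Losing HRDE-2 in the absence of MUT-2 lowered far more genes than it raised. The test called 297 genes lower by 2-fold or more (2.61%) and 25 higher by as much (0.22%), at an adjusted p of at most 0.05 in edgeR's quasi-likelihood test and with at least 10 RPM in the higher group. At an adjusted p alone, 1077 genes were lower (9.46%) and 133 higher (1.17%). At an unadjusted p of at most 0.05 in the same test, 2105 of the 11384 genes were lower and 790 higher. The falls were also the larger changes. They reached 4-fold at 58 genes and 8-fold at 16, and no rise reached 4-fold. Of the genes that fell, 205 were protein-coding, 38 were pseudogenes, 17 snoRNAs, 16 rRNAs, 15 ncRNAs, 3 tRNAs, 2 lincRNAs and 1 an antisense RNA. Without the double mutant replicate 2, 8 ncRNAs fell, and leaving out 1 library put the tRNA falls at 1 to 8. Scaling by library size alone kept all 25 rises and 170 of the 297 falls, and gave 87 rises and 184 falls in all, so that rises made up 32.1% of the calls in place of 7.76%. The overlapping features C53C7.t3 and C53C7.6 had the largest fitted falls (-6.13 ± 1.69 and -6.12 ± 1.69, adjusted p = 0.048 each), but rested on 1 library: C53C7.6 had 20.7, 12.3 and 24.4 RPM in the double mutant, against 15.9, 59.2 and 3103 RPM in mut-2. Without the mut-2 replicate 3 its log2 fold change was -1.24, and the call was also lost without any of the 3 double mutant libraries. In animals extracted whole, fewer germline cells and fewer small RNAs per cell cannot be told apart.

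**Figure D1:**
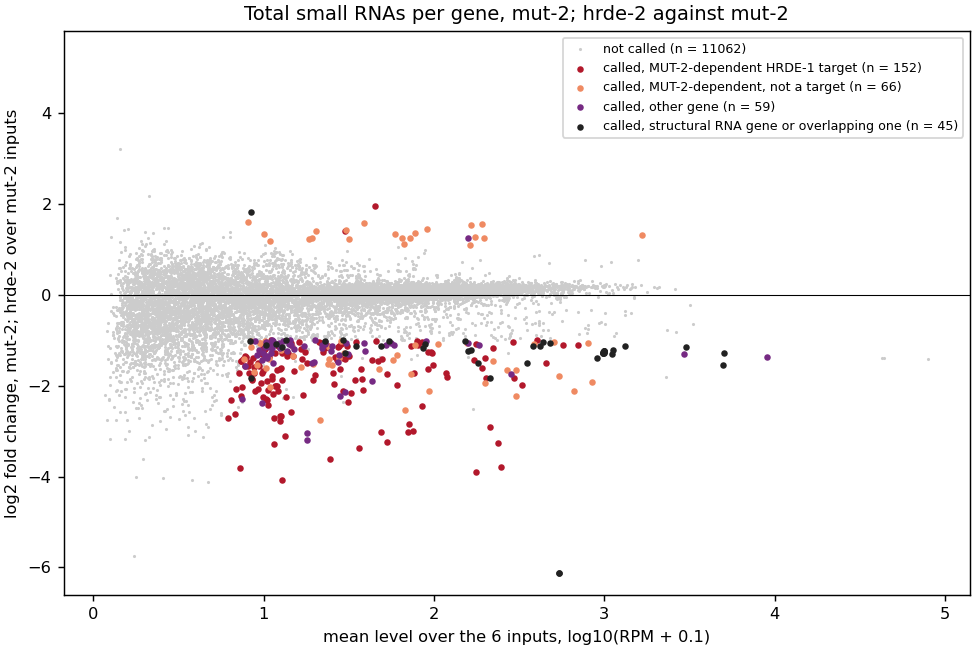
The log2 fold change of total small RNAs in the double mutant over mut-2 inputs (vertical axis) is plotted against the mean level over the 6 inputs as log10(RPM + 0.1), 1 point per gene tested, with called genes coloured by class. Most coloured points lie below 0, and most of the deepest falls are on MUT-2-dependent HRDE-1 targets. The coloured mark near -6 is an overlapping pair of features, C53C7.t3 and C53C7.6, drawn on top of each other, that rest on 1 mut-2 library.

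The genes that fell were mostly ones whose small RNAs had depended on MUT-2. Dependence was read from other libraries: a gene was called MUT-2-dependent if its small RNAs were at least 2-fold lower in simr-1 mut-2 than in simr-1 inputs, and MUT-2-independent if they were not clearly lower there. Both classes required a mean of 10 RPM in simr-1 inputs, and dependence also an adjusted p of at most 0.05 in edgeR's test. That contrast uses the mut-2 allele cmp306 in a simr-1 background. Of the 297 falls, 212 lay on MUT-2-dependent genes, 195 of them outside structural RNA genes and features that overlap one. A further 31 lay on MUT-2-independent genes, 14 of these 31 being structural RNA genes or features that overlap one. The other 54 falls were in neither class. By class, 11.6% of the 1822 MUT-2-dependent genes and 0.668% of the 4638 MUT-2-independent genes fell. The median log2 fold change was -0.45 over the first class and 0.07 over the second, beside 0.00 over all genes tested.

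Among the MUT-2-dependent genes, those that HRDE-1 binds in wild-type stood lowest. HRDE-1 targets were genes at least 2-fold higher in the wild-type IP than in the wild-type input, at an adjusted p of at most 0.05 and with 10 RPM in the IP. Of the 989 MUT-2-dependent targets tested, 150 fell (15.2%) and 2 rose, with a median log2 fold change of -0.70. Of the 833 MUT-2-dependent genes that were not targets, 62 fell (7.44%) and 21 rose (2.52%), with a median of -0.21. Outside structural RNA genes, 150 of 975 MUT-2-dependent targets fell (15.4%) and 45 of 779 that were not targets (5.78%). The genes that HRDE-1 binds without HRDE-2, called in the same way from the hrde-2 IP and input, changed little on the TMM scale. Of these, 2 of 3401 fell (0.0588%), 1 rose (0.0294%), and their median was 0.10. No set test was run on these classes, and their counts stand beside the shares over all genes given above. The medians moved up when libraries were scaled by size alone, to -0.17 for MUT-2-dependent genes, -0.16 for all HRDE-1 targets, 0.36 for MUT-2-independent genes and 0.39 for genes bound without HRDE-2, and kept their order.

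**Figure D2:**
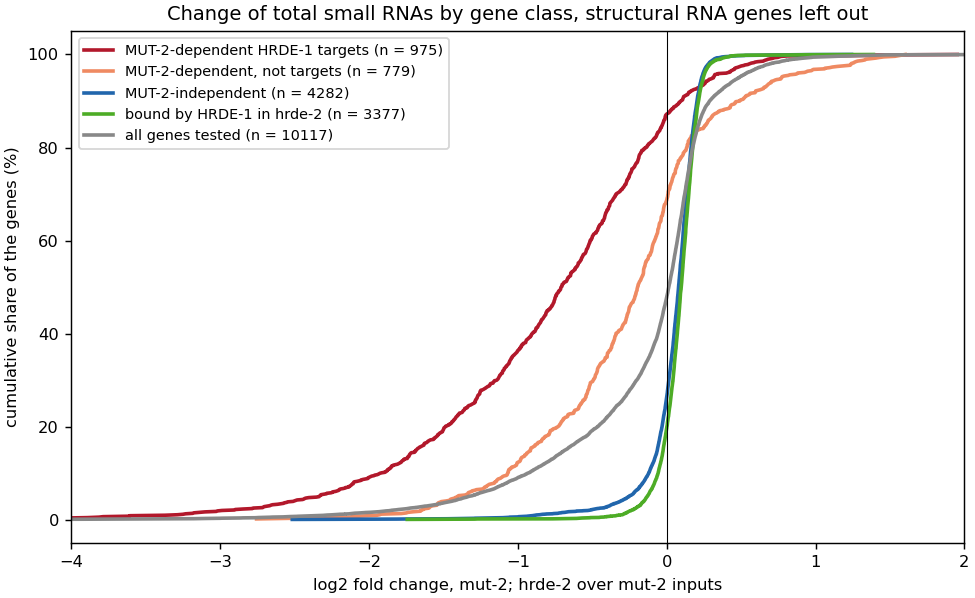
Cumulative share of genes (vertical axis, %) up to each log2 fold change of the double mutant over mut-2 inputs (horizontal axis), by gene class, with structural RNA genes and features that overlap them left out. The line of the 975 MUT-2-dependent HRDE-1 targets lies left of all others, and the lines of MUT-2-independent genes and of genes bound by HRDE-1 in hrde-2 are steep and pass just right of 0.

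MUT-2-dependent genes held a small share of the small RNAs in both genotypes. Outside structural RNA genes, MUT-2-dependent genes received 7.66%, 8.05% and 9.53% of the counts in the double mutant, against 11.5%, 11.3% and 9.90% in mut-2. For comparison, they took 65.8%, 67.2% and 65.7% in hrde-2 and 61.7%, 56.7% and 62.2% in wild-type inputs. HRDE-1 targets received 6.16%, 6.30% and 6.77% in the double mutant, against 8.51%, 8.35% and 7.82% in mut-2. Neither pair of groups overlapped (p = 0.1 each in the same exact permutation test; adjusted p = 0.1 over 8 shares). Over all counts, HRDE-1 targets held 5.03% ± 0.269 in the double mutant and 5.28% ± 0.169 in mut-2 (SD, n = 3 each), and the groups overlapped (p = 0.3, exact permutation test). Genes bound without HRDE-2 took 70.6%, 71.3% and 67.7% of the counts outside structural RNA genes in the double mutant, against 63.2%, 62.9% and 65.9% in mut-2 (p = 0.1, the same exact permutation test).

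The remaining small RNAs on the MUT-2-dependent genes that fell were already scarce. Over the 195 such genes outside structural RNA genes, the median level was 11.4 RPM in the double mutant and 27.3 RPM in mut-2, beside 200 RPM in hrde-2 and 289 RPM in wild-type inputs. Set against the wild-type level of each gene, the median was 4.41% in the double mutant and 12.7% in mut-2. These genes were picked for being lower in the double mutant. Outside structural RNA genes, 975 of 1142 MUT-2-dependent HRDE-1 targets were tested, with medians of 6.73% in the double mutant and 10.4% in mut-2. For MUT-2-dependent genes that were not targets, 779 of 932 were tested, with medians of 29% in the double mutant and 26.8% in mut-2. All of these are in RPM over all counts. Neither set was picked by fold change, but being tested required a minimum of counts in the same inputs. A gene could meet that minimum in the mut-2 inputs alone or in the double mutant inputs alone. These medians are therefore not independent of the compared libraries.

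Among the 10 largest falls with no overlap between libraries, 3 were on abundant small RNAs. C01G6.10, a pseudogene on chromosome II (9289506 to 9291539 in the WS258 annotation of the files), had 23.6, 26.3 and 30.2 RPM in the double mutant, against 332, 317 and 322 RPM in mut-2. Its log2 fold change was -3.89 ± 0.10 (adjusted p = 4.8e-08), and no double mutant library came near a mut-2 library. The aspartate aminotransferase gene got-1.2 on chromosome X (16791347 to 16793137) had 36.6, 38.3 and 45.8 RPM in the double mutant, against 466, 445 and 449 RPM in mut-2 (-3.79 ± 0.11, adjusted p = 5.5e-08). The ncRNA T01C8.10 lies inside got-1.2 on the other strand, and since the counting did not use strand its fall (-3.81 ± 0.22) cannot be told apart from that of got-1.2. The pseudogene K08E7.10 on chromosome IV (12561367 to 12563543) had 49.4, 54.0 and 58.0 RPM in the double mutant, against 417, 424 and 415 RPM in mut-2 (-3.25 ± 0.09, adjusted p = 5.4e-08).

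The largest fall among genes whose libraries did not overlap was on F28B4.1, a protein-coding gene on chromosome X, with 1.59, 1.26 and 2.38 RPM in the double mutant and 26.7, 21.7 and 23.1 RPM in mut-2 (-4.07 ± 0.23, adjusted p = 4.5e-06). The nuclear hormone receptor gene nhr-228 had 3.04, 4.88 and 5.49 RPM in the double mutant, against 48.4, 37.9 and 45.8 RPM in mut-2 (-3.61 ± 0.20). Falls of like size were measured on the pseudogene B0250.11 (-3.37 ± 0.11) and on the protein-coding genes C27C7.7 (-3.29 ± 0.21) and C44C10.5 (-3.23 ± 0.08), each with an adjusted p of at most 9.2e-06. All of these genes were MUT-2-dependent HRDE-1 targets. The last of the 10 largest falls, on F56A8.9, was of another kind: it had 4.34, 5.67 and 2.197 RPM in the double mutant and 22.1, 42.8 and 29.6 RPM in mut-2 (-3.20 ± 0.31), but only 2.62 RPM in hrde-2 and 3.69 RPM in wild-type inputs. It was in neither MUT-2 class, both of which required 10 RPM in simr-1 inputs, and was not called an HRDE-1 target.

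**Figure D3:**
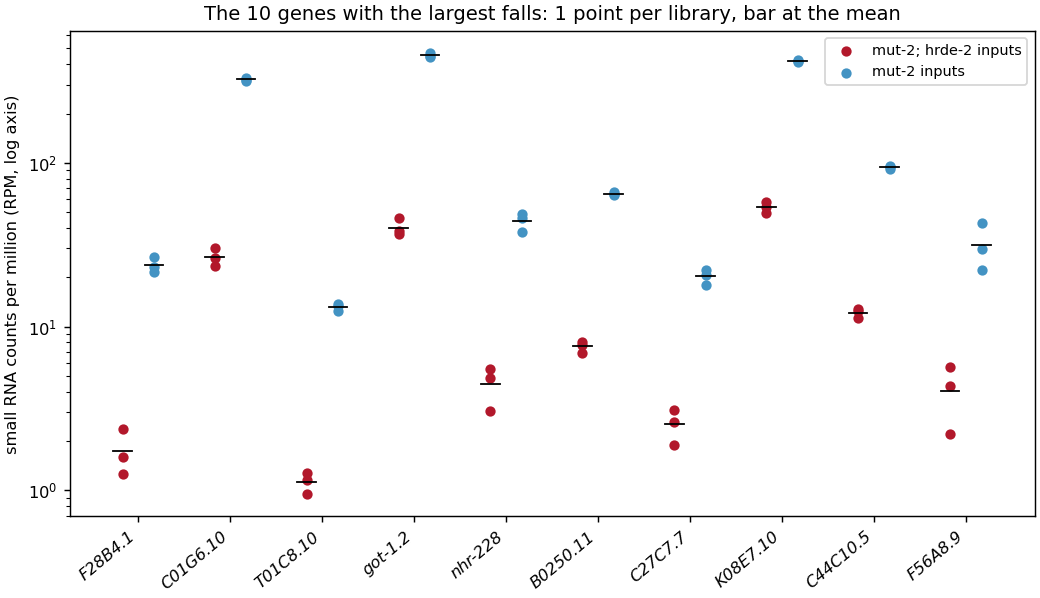
RPM on a log axis for the 10 genes with the largest falls, with double mutant inputs at left and mut-2 inputs at right of each pair, 1 point per library and a bar at the mean. In all 10 the highest double mutant library lies below the lowest mut-2 library, as the choice of genes required, and the 3 libraries of C01G6.10, got-1.2 and K08E7.10 lie close together in each group.

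Most genes that fell in the inputs also fell among the small RNAs bound by HRDE-1. In the HRDE-1 IP libraries made from the same lysates, 1124 of 11638 genes were lower in the double mutant than in mut-2 (9.66%) and 18 were higher (0.155%). Of the 291 genes that fell in the inputs and were tested in the IPs, 209 fell in the IPs and none rose in edgeR's test; at an unadjusted p of at most 0.05, 260 were lower and 3 higher. C01G6.10 had 24.1, 16.1 and 11.9 RPM in the double mutant IPs, against 2804, 2621 and 2834 RPM in the mut-2 IPs, a log2 fold change of -7.54. For got-1.2 it was -7.57, for K08E7.10 -7.59 and for C27C7.7 -7.95. The 3 double mutant IPs of C01G6.10 were far below every mut-2 IP.

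The genes that fell in the inputs split into 2 sets by their IP change. In 190 of the 291 the IP log2 fold change was at or below -2, with a median of -5.42 in the IPs and -1.61 in the inputs, and 182 of these 190 were MUT-2-dependent, 150 were HRDE-1 targets and 1 was a structural RNA gene or overlapped one. In the other 101 the IP change was above -2, with a median of -0.94 in the IPs and -1.21 in the inputs, and 30 of these were MUT-2-dependent, 3 were HRDE-1 targets and 40 were structural RNA genes or overlapped one. The boundary of -2 was set after the values were seen. F56A8.9 belonged to the second set, with an IP log2 fold change of 1.04 at no more than 1.55 RPM in any IP.

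**Figure D4:**
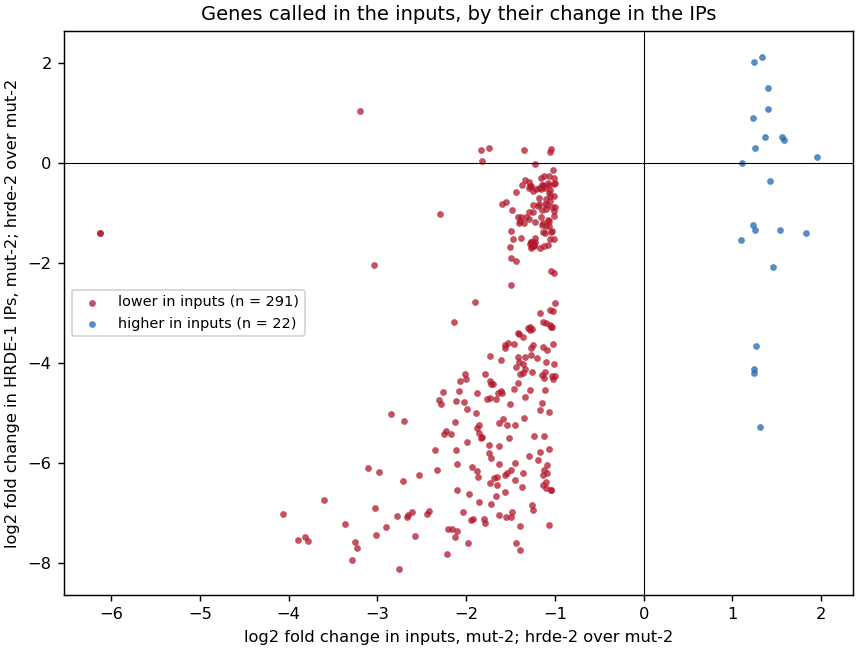
The log2 fold change of the double mutant over mut-2 in the HRDE-1 IPs (vertical axis) is plotted against that in the inputs (horizontal axis) for each gene called in the inputs and tested in both. The 291 genes that fell form a cloud near -1 in both and a second, larger one that reaches -8 in the IPs; the 22 genes that rose lie on both sides of 0 in the IPs.

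The bath genes, which encode proteins with BTB and MATH domains, were a gene family with many falls. Of 36 bath genes tested 9 fell, and of 8 math genes tested none did (none at an unadjusted p of at most 0.05 either), so that 20.5% of the combined list fell, beside 2.61% of all genes. The median over the combined list was -0.12. bath-20 had 246, 291 and 320 RPM in the double mutant, against 807, 838 and 768 RPM in mut-2 (-1.78 ± 0.11, adjusted p = 9.1e-06). bath-23 had 3.04, 2.52 and 4.39 RPM in the double mutant, against 27.9, 20.2 and 21.5 RPM in mut-2 (-3.103 ± 0.23, adjusted p = 3.0e-05). Falls on bath-31 (-2.66 ± 0.17) and bath-10 (-2.25 ± 0.19) were of similar depth, and each of the 4 lay below -5 on the log2 scale in the IPs. The fbxa genes, which encode F-box proteins, gave 3 falls and 1 rise among 59 tested, the falls being on fbxa-218 (-1.63 ± 0.10), fbxa-10 (-1.17 ± 0.15) and the pseudogene fbxa-203 (-1.04 ± 0.09).

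Over 8 lists of RNA interference and germline RNA genes, 4 of 104 genes tested fell (3.85%) and none rose, beside 2.61% lower and 0.22% higher over all genes. Of 10 Mutator genes, 6 relatives of SIMR-1 and HRDE-2, 12 genes of nuclear RNAi and H3K9 methylation, 15 P and Z granule genes and 23 germline RNA regulators tested, none was called by edgeR or DESeq2, and the medians lay between 0.03 and 0.13. At an unadjusted p of at most 0.05 in edgeR, 3 of these 66 genes were higher and 2 lower, beside 790 and 2105 of all 11384 genes tested. Among the Argonautes 1 of 22 fell, the pseudogene wago-2, with 280, 324 and 306 RPM in the double mutant and 487, 496 and 507 RPM in mut-2 (-1.002 ± 0.10, adjusted p = 0.00015). wago-2 lay at the 2-fold limit, between -1.05 and -0.95 when a library was left out. Among the polymerase and Dicer complex genes 1 of 13 fell, eri-6, which encodes part of a helicase needed for a class of 26-nt small RNAs, with 97.1, 110 and 122.3 RPM in the double mutant, against 289, 283 and 251 RPM in mut-2 (-1.61 ± 0.09, adjusted p = 5.0e-06). The exons of eri-6 overlap another gene, so that reads are shared. Of 5 tested genes of systemic and exogenous RNAi 2 fell: sid-1, which encodes a channel for double-stranded RNA, had 137, 161 and 173 RPM in the double mutant and 283, 289 and 293 RPM in mut-2 (-1.17 ± 0.09, adjusted p = 4.3e-05), and rde-11, which encodes a cofactor of exogenous RNAi, had 129, 133 and 126 RPM in the double mutant and 217, 219 and 239 RPM in mut-2 (-1.09 ± 0.08, adjusted p = 3.2e-05).

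wago-2, eri-6, sid-1 and rde-11 were all MUT-2-dependent HRDE-1 targets, and in the IPs their log2 fold changes were -4.25, -4.56, -4.94 and -3.74. The abundant small RNAs on wago-4, prg-1, mut-7, mut-14, ego-1, rrf-3, simr-1, nrde-2, znfx-1 and glh-4, genes of Argonautes, Mutator proteins, polymerases and germ granules, had log2 fold changes of 0.15 to 0.30, none past the test. For wago-4, for example, there were 1152, 1252 and 1114 RPM in the double mutant and 813, 850 and 869 RPM in mut-2 (0.19 ± 0.12, adjusted p = 0.35). The RPM of wago-4 did not overlap between the groups, and the same held, with the double mutant higher, for 45.6% of the genes tested. The values for klp-7 (0.17), puf-11 (0.05), rsd-6 (0.04), spe-39 (0.13), his-74 (0.14), msp-33 (0.12) and rpl-3 (-0.32) were likewise within 2-fold, and the sign for puf-11 and for msp-33 changed when a library was left out.

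Genes outside these lists that fell were of varied function. They included sod-4, an extracellular superoxide dismutase (-2.57 ± 0.16), ethe-1, a mitochondrial persulfide dioxygenase (-2.71 ± 0.17), klp-11, a kinesin motor subunit (-2.17 ± 0.22), the nuclear hormone receptor gene nhr-249 (-2.76 ± 0.22), the pseudogenes Y46H3C.6 (-2.90 ± 0.13) and Y37H9A.2 (-2.53 ± 0.14), and the protein-coding gene ZK892.6, whose -3.03 ± 0.10 was just past 8-fold. The exons of sod-4 overlap another gene. Outside protein-coding genes and pseudogenes, linc-63 had 220, 271 and 328 RPM in the double mutant, against 614, 644 and 631 RPM in mut-2 (-1.497 ± 0.13, adjusted p = 9.6e-05), and the antisense RNA anr-35 had 115, 120 and 145 RPM in the double mutant, against 480, 487 and 476 RPM in mut-2 (-2.22 ± 0.11). anr-35 overlaps the exons of another gene, from which it cannot be told apart without strand. By chromosome, 4.23% of the genes tested on X fell, 3.35% on V, 2.92% on II, 2.04% on I and 1.88% on each of III and IV.

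Structural RNA genes were among the falls. All 15 copies of the 5S rRNA gene that were tested fell, by 1.29 on the log2 scale at rrn-4.3, but these copies are near-identical and share reads. The rRNA gene rrn-2.1 had 3202, 2119 and 3423 RPM in the double mutant, against 7776, 6835 and 6400 RPM in mut-2 (-1.55 ± 0.23, adjusted p = 0.0028). rrn-3.1, the most abundant feature of each of the 6 libraries, had 57990, 36330 and 56920 RPM in the double mutant, against 116900, 111800 and 99820 RPM in mut-2, which did not pass the test (-1.40 ± 0.45, adjusted p = 0.083). Of 176 snoRNAs tested 17 fell and none rose, beside 2.61% of all genes lower. At an unadjusted p of at most 0.05 in edgeR, 113 were lower and 4 higher, beside 2105 and 790 of all 11384 genes tested. There were 11 falls without the double mutant replicate 1 and 26 without its replicate 3. Among the 17 were C16A3.11 (-1.501 ± 0.12) and T10B9.11 (-1.38 ± 0.12). The summed snoRNA level was 15980 to 20450 RPM in the double mutant and 22190 to 25200 RPM in mut-2. On T10B9.11 there were 532, 624 and 581.5 RPM in the double mutant and 1308, 1311 and 1094 RPM in mut-2. Its means were 408 RPM in hrde-2 and 344 RPM in wild-type inputs. The mut-2 libraries were thus the high ones in RPM, which is not corrected for library make-up. Structural RNA genes and features that overlap them made up 44 falls and 1 rise, and 253 falls and 24 rises lay elsewhere. On the mitochondrial chromosome, 1 of 36 features fell, beside 2.61% of all genes. It was the tRNA gene MTCE.19 (-1.27 ± 0.28, adjusted p = 0.02), with 17.4, 26.3 and 16.7 RPM in the double mutant and 22.5, 55.6 and 41.9 RPM in mut-2, so that the groups overlapped, and its call was lost without replicate 1 or 3 of the double mutant or replicate 2 of mut-2.

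Summed levels over somatic and sperm genes were not tested, and are given beside the calls. The 6 vitellogenin genes, which encode yolk proteins made in the intestine, summed to 1276 to 2035 RPM in the double mutant and 1946 to 2741 RPM in mut-2, groups that overlapped, with a median log2 fold change of -0.89; none was called by edgeR or DESeq2, though each of the 6 was lower at an unadjusted p of at most 0.05, all 6 fell without the double mutant replicate 1 and 3 fell without the mut-2 replicate 2, and vit-2 stood at -0.88 ± 0.19 (adjusted p = 0.016). The 159 collagen genes summed to 312 to 491 RPM in the double mutant and 516 to 658 RPM in mut-2, with a median of -1.03 over the 45 tested, of which 2 fell, col-19 (-1.12 ± 0.28) and col-122 (-1.06 ± 0.24); 13 fell without the double mutant replicate 1, 1 without the mut-2 replicate 1 and none without replicate 2 or 3 of the double mutant or replicate 3 of mut-2. The 35 major sperm protein genes summed to 132 to 198 RPM in the double mutant and 90.2 to 131 RPM in mut-2, none of them at 0 in any library, with a median of 0.30, no call by edgeR or DESeq2 and 4 higher at an unadjusted p of at most 0.05. Of 78 ribosomal protein genes and 71 histone genes tested, 0 ribosomal protein genes (median -0.27) and 1 histone gene (median -0.41) fell, while the histone count was 0 without the mut-2 replicate 2 and 2 without the mut-2 replicate 1 or the double mutant replicate 3. DESeq2 called no ribosomal protein gene either, though 44 were lower in edgeR at an unadjusted p of at most 0.05. Of the histone genes, 40 were lower at that unadjusted p and 17 at an adjusted p of at most 0.05, and none was higher at either. Over all 11384 genes tested, 2105 were lower and 790 higher at an unadjusted p of at most 0.05 in edgeR. rRNA took 8.71% to 28.9% of the counts in the 6 inputs and 1.22% to 2.25% in the IPs of the same genotypes. The part that these differences in tissue signal, or in the share of structural RNA, play in the falls was not tested.

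The rises lay mostly on MUT-2-dependent genes that were not called HRDE-1 targets. Of the 25, 23 were MUT-2-dependent and 21 of these were below the 2-fold enrichment in the wild-type IP, or failed its test, which does not show that HRDE-1 leaves them unbound. There were 15 protein-coding genes, 5 lincRNAs, 2 ncRNAs, 2 pseudogenes and 1 tRNA gene. Of the 51 lincRNAs tested 5 rose (9.80%), beside 0.22% of all genes, and 2 fell; without the mut-2 replicate 2, 3 rose. linc-12 had 195, 271 and 430 RPM in the double mutant, against 90.0, 102 and 58.12 RPM in mut-2 (1.56 ± 0.26, adjusted p = 0.0051). linc-16 (1.46 ± 0.30), linc-68 (1.41 ± 0.29), linc-121 (1.33 ± 0.28) and linc-86 (1.19 ± 0.29) rose by similar amounts, the last 2 of them overlapping exons of other genes. linc-86 lies within the ncRNA Y116A8B.98, which was also among the 25 rises. Since the counting did not use strand, the rise of linc-86 cannot be told apart from that of Y116A8B.98. The calls on linc-16 and linc-68 were lost without the mut-2 replicate 2, and that on linc-86 without replicate 2 or 3 of either genotype.

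Among the protein-coding genes, Y23H5A.8 rose most, with 67.9, 62.1 and 92.1 RPM in the double mutant and 17.5, 12.96 and 16.1 RPM in mut-2 (1.95 ± 0.17, adjusted p = 8.4e-05). The most abundant was W04A8.9, with 2155, 2539 and 2816 RPM in the double mutant, against 836, 900 and 738 RPM in mut-2 (1.31 ± 0.14, adjusted p = 0.00038). F16B4.6 had 226, 264 and 292 RPM in the double mutant, against 90.2, 100 and 75.7 RPM in mut-2 (1.27 ± 0.11). The pseudogene E01G4.7 had 190, 243 and 334 RPM in the double mutant, against 90.0, 81.1 and 46.9 RPM in mut-2 (1.53 ± 0.23). Y116F11A.1 (1.58 ± 0.27), F52D2.6 (1.43 ± 0.23), F55C9.3 (1.37 ± 0.30), F55C9.5 (1.26 ± 0.27), K02E2.11 (1.24 ± 0.22) and the ncRNA T05E12.10 (1.26 ± 0.16) lay in the same range. So did the protein-coding gene WBGene00219443 (1.602 ± 0.36), at no more than 19.2 RPM in any of the 6 libraries and not called without replicate 1 or 3 of mut-2.

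In the rises, the libraries numbered 3 were often the extreme ones of their groups. The double mutant replicate 3 was the highest of its group in 21 of the 25, and the mut-2 replicate 3 the lowest of its group in 23. Both held at 20 of the 25, beside 735 of the 1754 MUT-2-dependent genes tested outside structural RNA genes, so the pattern was not limited to the rises. These libraries share a number and were not paired. Without the double mutant replicate 3, 19 of the 25 were still called, and without the mut-2 replicate 3, 18 were. Of the 4 members tested of a short list of 26G-RNA targets, none was called by edgeR or DESeq2 and 2 were higher at an unadjusted p of at most 0.05, with 0.79 ± 0.27 on E01G4.5 (adjusted p = 0.096), 0.52 ± 0.21 on K02E2.6, 0.18 ± 0.18 on W04B5.1 and -0.29 ± 0.24 on linc-22. The exons of linc-22 and K02E2.6 overlap other genes.

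A pair of genes rose with little spread and to RPM above those in wild-type. RPM was not corrected for library make-up. Over all counts, MUT-2-independent genes took 26.1% to 32.7% in wild-type inputs and 71.5% to 77.8% in the double mutant. A higher RPM than in wild-type therefore need not mean more small RNAs on a gene. F10G7.10 had 229, 253 and 224 RPM in the double mutant, against 81.2, 81.2 and 82.1 RPM in mut-2 (1.24 ± 0.08, adjusted p = 7.4e-06), beside means of 33.5 RPM in hrde-2 and 31.1 RPM in wild-type inputs. wdfy-3 had 86.7, 91.4 and 88.1 RPM in the double mutant, against 31.2, 28.4 and 26.9 RPM in mut-2 (1.34 ± 0.08, adjusted p = 7.4e-06), beside 21.7 RPM in hrde-2 and 23.3 RPM in wild-type inputs. Both also rose in the IPs, by 2.03 and 2.13 on the log2 scale, and the exons of both overlap other genes. fbxa-11 had 47.0, 49.0 and 40.3 RPM in the double mutant, against 15.1, 14.4 and 13.02 RPM in mut-2 (1.40 ± 0.12, adjusted p = 8.3e-05), and was the other gene that rose in the IPs (1.08). In contrast, 7 of the 22 rises tested in the IPs fell there. W04A8.9 had 104, 90.2 and 90.2 RPM in the double mutant IPs, against 3235, 3251 and 2952 RPM in the mut-2 IPs, and fell by 5.29 and F16B4.6 by 3.66 on the log2 scale.

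**Figure D5:**
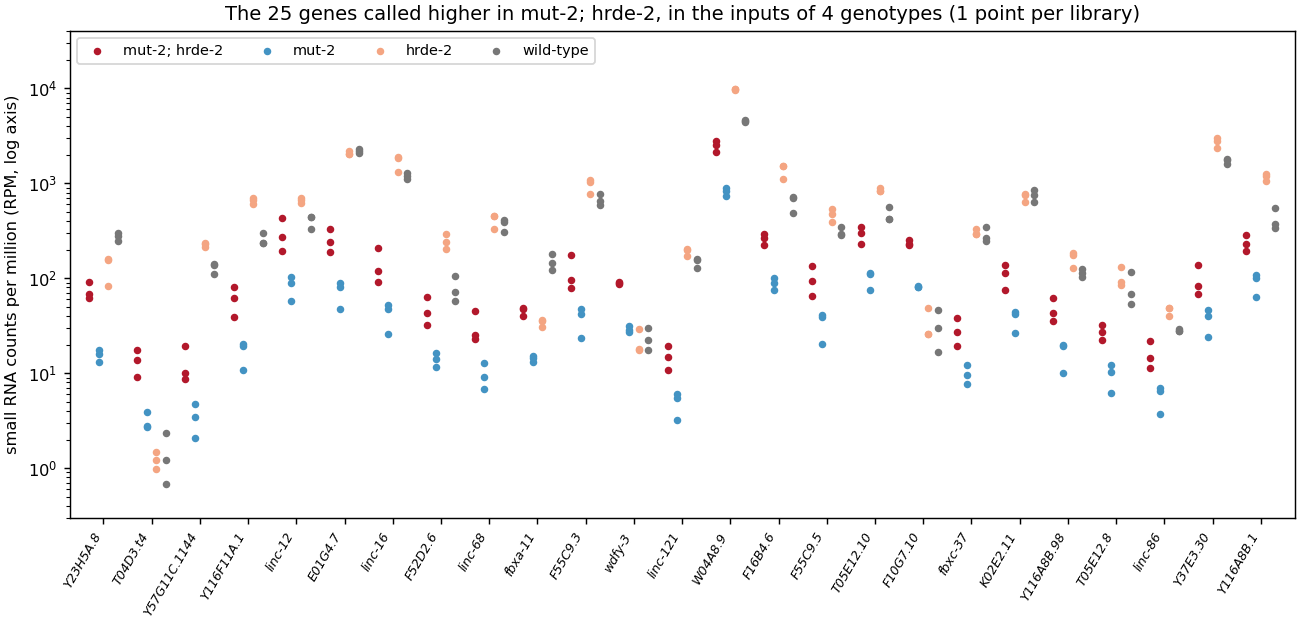
RPM on a log axis in the double mutant, mut-2, hrde-2 and wild-type inputs for the 25 genes called higher in the double mutant than in mut-2, ordered by fold change, 1 point per library. In 22 of the 25 the double mutant mean stays below the wild-type mean, and the exceptions are T04D3.t4, wdfy-3 and F10G7.10. RPM is not corrected for the different make-up of libraries with and without MUT-2.

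With MUT-2 present, losing HRDE-2 both lowered and raised small RNAs. Between hrde-2 and wild-type inputs, which share no library with the comparison above, 808 of 13782 genes were lower (5.86%) and 351 were higher (2.55%). Of the 295 genes that fell without MUT-2 and were tested there, 190 had a negative change with MUT-2 present too. Their median log2 fold change there was -0.20, beside 0.01 over all genes tested. By the calls, 26 of the 295 fell with MUT-2 present too and 20 rose. For bath-23, bath-20 and eri-6 the sign differed: the mean for eri-6 was 6250 RPM in hrde-2 and 2761 RPM in wild-type inputs (log2 fold change 1.33), for bath-23 735 RPM in hrde-2 and 383 RPM in wild-type (1.10), and for bath-20 7511 RPM in hrde-2 and 4482 RPM in wild-type (0.90, below the 2-fold limit), while all 3 fell when MUT-2 was also missing. Of the 25 genes that rose, 22 had a positive change in hrde-2 against wild-type, 6 passed the test there and 1 fell. W04A8.9 changed by 1.26, F16B4.6 by 1.28, T05E12.10 by 1.02, Y116F11A.1 by 1.52, F52D2.6 by 1.82 and Y116A8B.1 by 1.64 on the log2 scale in hrde-2 against wild-type, and fbxa-11, which rose without MUT-2 (1.40 ± 0.12), fell with MUT-2 present (-1.99).

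The difference between the 2 effects of HRDE-2 was tested as an interaction over the 12 inputs. The effect was lower without MUT-2 at 807 of 14482 genes (5.57%) and higher at 398 (2.75%). This balance depended on the scaling: by library size alone it turned, with 478 lower and 822 higher. Of the 297 falls, 163 passed this test in the same direction, and of the 25 rises, 6 did. The falls and rises were picked from the double mutant and mut-2 inputs, which this test also uses. That choice by itself favours the same direction, so these counts are not separate support. Over MUT-2-dependent genes 477 of 2145 had a lower effect without MUT-2 and 206 a higher effect, and over genes bound without HRDE-2 3 of 3401 were lower and 55 higher. The largest interaction values belonged to genes whose small RNAs were near 0 in both the double mutant and mut-2 and changed in hrde-2 against wild-type. For wrt-5, a Hedgehog-related gene, the interaction was -8.49 ± 0.43, with 1.59 to 2.52 RPM in the double mutant and 1.35 to 3.44 RPM in mut-2. For ckk-1, a calmodulin-dependent kinase kinase gene, it was 5.92 ± 0.29, with 1.89 to 2.89 RPM in the double mutant and 1.64 to 2.46 RPM in mut-2.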

How the data were processed

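Expected counts per gene were deposited by the authors: adapters were removed with FASTX-Toolkit, size standards with cutadapt 3.4, and reads were mapped to the WS258 genome with Bowtie2 2.5.0 and counted with featureCounts of Subread 2.0.1, per the file headers without a strand setting and with reads on several genes divided, which left 10.4% of non-zero values fractional. Counts were rounded to whole numbers. The tables list 31106 features, of which 8283 overlap an exon of another gene and 1 is a miRNA (the annotation left out features overlapping miRNAs, per its name), so miRNA lists and miRNA tissue markers were not analysed here. The header of the second wild-type input names replicate 1, but its values differ from that library, and it was used as labelled. The test had been planned for whole counts. Genes reaching 10 counts in 3 or more libraries were tested with edgeR 4.0.16 in R 4.3.3 (TMM, quasi-likelihood F test, Benjamini-Hochberg adjustment over all genes tested). A call required a 2-fold change, an adjusted p of at most 0.05 and, except for the interaction, 10 RPM in the higher group. SE is the standard error from that fit. MUT-2-independent genes had 10 RPM in simr-1 inputs and a log2 fold change of at least -0.5. Shares were compared by exact permutation tests in Python 3.11.15. The fit was tested on simulated data.

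Genes were named by rule: the mutated and tagged genes, the 10 largest rises and 10 largest falls with no overlap between libraries, up to 4 called members per list or, with fewer than 2, the most abundant, and the 5 largest interaction values in each direction. rrn-3.1, C53C7.t3, C53C7.6, E01G4.5, W04B5.1 and the rises outside the 10 largest were named after their values were seen. The members and lists were chosen with earlier results of these data known. Same-numbered replicates did not deviate together (correlations -0.34 to 0.00), so replicates were not paired. Replicates of a group differed beyond sampling noise (chi-square of 6.35 to 14.4 per gene). Alternatives were DESeq2 1.42.0, other scaling and filters, a replicate block, left-out libraries and all 18 inputs in a single fit.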

Additional observations from a re-analysis of the deposited data

Results flagged for a closer look

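The effect of losing HRDE-2 differed between animals without and with MUT-2, by the interaction term of edgeR over the 12 inputs, at the following genes. Each value is the log2 fold change of the mut-2; hrde-2 double mutant over mut-2 minus that of hrde-2 over wild-type. It was most negative at wrt-5 (-8.49), C42D4.19 (-8.37), cdh-9 (-7.12), bbs-5 (-6.78) and F28A10.9 (-6.36). It was most positive at grd-16 (6.76), Y37H2A.10 (6.57), ckk-1 (5.92), rimb-1 (5.54) and Y81B9A.1 (5.39). No mut-2; hrde-2 or mut-2 input held more than 3.61 RPM of any of these 10 genes, so the values depend on a few counts and their order is not a ranking of sizes. F28A10.9 had 0 counts in all 3 mut-2; hrde-2 inputs and 4, 2 and 2 in the mut-2 inputs, cdh-9 had 1, 0 and 2 against 4, 6 and 3, grd-16 had 3, 0 and 1 against 2, 0 and 0, and Y37H2A.10 had 1, 1 and 2 against 0, 1 and 1. The fitted values of these 4 genes are not bounds either. All 10 also changed in hrde-2 against wild-type, by 8.12 at wrt-5 and 1.85 at F28A10.9 on the log2 scale, for example: bbs-5 averaged 560 RPM in hrde-2 and 17.5 RPM in wild-type inputs, and Y81B9A.1 averaged 8.85 RPM in hrde-2 and 238 RPM in wild-type inputs.

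Among the genes that fell, the difference was -4.18 at bath-23, -4.14 at C01G6.10, -4.09 at Y37H9A.2, -3.99 at K08E7.10, -3.60 at T01C8.10, -3.30 at F28B4.1, -3.24 at Y46H3C.6 and C44C10.5, -3.13 at got-1.2, -3.04 at B0250.11, -2.94 at nhr-228, -2.93 at eri-6, -2.87 at ZK892.6, -2.83 at F56A8.9 and -2.67 at bath-20. It was -2.52 at the histone gene WBGene00001925, -2.27 at C27C7.7, -2.21 at ethe-1, -2.17 at bath-31, -2.16 at sod-4, -2.03 at bath-10, -1.96 at linc-63, -1.76 at T10B9.11 and anr-35, -1.74 at nhr-249, -1.70 at MTCE.19, -1.49 at klp-11, -1.44 at C16A3.11, -1.202 at sid-1, -1.18 at fbxa-218 and -1.03 at wago-2.

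Among the genes that rose, it was 3.39 at fbxa-11, 2.87 at Y23H5A.8, 1.91 at T04D3.t4, 1.47 at E01G4.7, 1.30 at wdfy-3 and 1.14 at K02E2.11. At genes called in neither direction, it was 1.03 at prg-1 and -1.41 at msp-33. The genes that fell or rose were picked from the mut-2; hrde-2 and mut-2 inputs, which the interaction also uses.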

How the results depend on the processing

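No gene called in the double mutant against mut-2 was called in the other direction under any alternative fit. Signs were compared for the named genes only, and none of the 71 at an adjusted p of at most 0.05 changed sign. Scaling by library size alone gave 87 rises and 184 falls, no RPM minimum 39 and 707, and an adjusted p alone 133 and 1077; leaving out 1 library gave 19 to 40 rises and 244 to 318 falls, the 40 without the double mutant replicate 2. Library-size scaling put MUT-2-dependent genes at a median of -0.17 with 42 rises and 141 falls, MUT-2-independent genes at 0.36 with 7 and 13, HRDE-1 targets at -0.16 with 11 rises, genes bound without HRDE-2 at 0.39 with 4 rises, the interaction at 822 higher and 478 lower, and the IPs at 121 rises. Without a filter on low counts, the MUT-2-independent median was 0.13 with 2 rises, and genes bound without HRDE-2 had a median of 0.16 and 4 falls. With all 18 inputs in a single fit, MUT-2-independent genes had a median of 0.13, 2 rises and 9 falls, and genes bound without HRDE-2 had 0 falls, as with DESeq2, against 1 with scaling outside structural RNA genes. Leaving out 1 library gave MUT-2-independent genes 1 to 2 rises and 18 to 46 falls (18 without the double mutant replicate 2), genes bound without HRDE-2 1 to 2 rises and 0 to 5 falls, HRDE-1 targets a median of -0.47 to -0.35, and the IPs 11 to 34 rises. Outside structural RNA genes, the share in the double mutant minus that in mut-2 was -2.50 points for MUT-2-dependent genes, 4.697 for MUT-2-independent genes, -1.82 for HRDE-1 targets and 5.88 for genes bound without HRDE-2. Over all counts, the share of MUT-2-independent genes was 14.92 points higher in the double mutant, and 0.92 points higher with the class taken against wild-type inputs. Small changes turned sign at 5 genes. ckk-1 stood at 0.0158 with DESeq2, 0.2797 with library-size scaling, 0.0485 without a filter, 0.047 with 18 inputs and -0.1695 to 0.1596 with a library left out. mut-2 stood at 0.2506 with library-size scaling, 0.0197 without a filter and 0.0178 with 18 inputs. With a library left out, msp-33 ranged over -0.1228 to 0.3157, puf-11 over -0.0034 to 0.144 and wrt-5 over -0.6847 to 0.0368. The cause was not tested. With the replicate number as a block, 24 rises and 309 falls were called, 24 and 292 of them shared with the fit without it; same-numbered libraries did not deviate together (correlations of -0.004, -0.04 and -0.34). At 10 RPM a value rested on at least 54.6 counts, which limits what could be called below that level. Chosen after seeing the data, counting calls outside structural RNA genes gave 24 rises and 253 falls, and counting calls whose libraries did not overlap gave 25 and 273.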
